A study of Mus musculus with 6 samples.

Results

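Melanocyte genes were followed in 6 bulk RNA-seq libraries of mouse dermal fibroblasts. The genes were chosen by symbol from a list of 10: Pmel, Dct, Tyrp1, Tyr, Mlana, Mitf, Kit, Mc1r, Slc45a2 and Oca2. Of these, 9 have values in the table of 23407 genes used here, and Oca2 was not analysed here. The libraries are 3 labelled wild type (WT) and 3 labelled TSP2KO, a genotype that lacks thrombospondin-2, the matricellular protein encoded by Thbs2. Both groups are cells of back skin dermis, taken from mice 12 weeks old and freed from epidermis and fat. They spent 3 to 5 days in serum-containing culture to favour fibroblasts and were harvested at passage 1. The sources used here do not give the strain or coat colour, nor the TSP2KO allele, nor whether each library is a separate animal. Any p-value below therefore reflects the spread among 3 libraries a group, part of which may be technical. The title of the series names the steady state of the skin fibroblast as its subject.

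Melanocytes are pigment cells of neural crest origin. In the haired back skin of the mouse they sit mainly in hair follicles, so a dermal preparation can carry some along. They build melanin inside melanosomes, lysosome-related organelles that form on PMEL fibrils. Tyrosinase (Tyr) starts the synthesis, and the related enzymes TYRP1 and DCT act downstream of it. The transporter SLC45A2 helps to set the conditions inside the melanosome. MITF, a basic helix-loop-helix factor, is known to drive many of these genes, and the receptors KIT and MC1R signal to it. Mitf and Kit are not restricted to melanocytes: mast cells express both, and macrophages and other cells express Mitf.

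MITF is known to bind the letters CATGTG, the core of the M-box of pigment gene promoters. The windows below show this core upstream of the RefSeq start of the 3 melanin enzymes and of Mc1r, whose values are given further on, as are those of Mitf. Each is 30 bases long, 5′ to 3′ on the strand of the gene, from RefSeq on GRCm38.p6, with CATGTG or its reverse complement CACATG in capitals.
Tyrp1 (chr4:80834155-80834184, plus strand): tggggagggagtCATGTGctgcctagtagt
Tyr (chr7:87493516-87493545, minus strand): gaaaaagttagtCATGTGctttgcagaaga
Dct (chr14:118052379-118052408, minus strand): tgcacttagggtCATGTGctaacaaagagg
Mc1r (chr8:123407019-123407048, plus strand): gCACATGcccatCATGTGgccaccctcagg
The last CATGTG began 46, 21, 150 and 51 bases before the RefSeq start of Tyrp1, Tyr, Dct and Mc1r. For Tyrp1 that start lies 90 bases downstream of the GENCODE gene start given further on, so the Tyrp1 window is inside the gene as GENCODE annotates it. The other 3 windows are upstream of both starts. RefSeq windows from 250 bases before to 50 bases after a start were at hand for 7 of the 10 genes. CATGTG on either strand was found in 5 of the 7, namely these 4 and Oca2, and in 14.2% of all 32851 windows. The longer TCATGTG, which contains it, was found in the 4 shown and in 3.77% of all windows. The 3 windows of Mitf and the 2 of Kit held neither. The counts of members are of genes and the percentages are of windows, so they are not on the same footing. A match of letters is a description and not a shown binding site.

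The libraries do not fall apart by label alone. Thbs2 (chromosome 17, 14665500 to 14694235 on mm10, minus strand) was at 122061 in WT 1 and 116720 in WT 2 (normalised reads) and at 4891 to 6635 in the TSP2KO libraries. The third library of the wild-type group had 8841, against its label, and is called the library labelled WT 3. Every WT mean below holds it, and results are given with and without it. The fit over all libraries left Thbs2 itself short of the threshold, at -3.18 in log2 (SE 0.95, limma adjusted p = 0.318). Dropping the third wild-type library took Thbs2 past the threshold as lower, at -4.43 (SE 0.22, limma adjusted p = 0.00257). A gene short of the threshold in the fit over all libraries is thus not shown to be unchanged. Estimated depth was 14776502 to 34599855 reads, lowest in TSP2KO 3, and 1 read was worth 0.392 to 0.890 normalised reads. All 9 fibroblast markers were present in every library, among them Col1a1 at 29283 to 59560 and Vim at 8824 to 15339. In sign 7 of them were lower in TSP2KO and 2, Col1a1 and Vim, higher. With all libraries Dcn, Lum and Pdgfra were lower at an unadjusted limma p under 0.05, against 6.09% of all genes tested, with 0 past the threshold. Without the library labelled WT 3, Pdgfra alone passed as lower (log2 difference -1.57, SE 0.31, limma adjusted p = 0.0401), against 2.75% of all genes. Dcn, the matrix proteoglycan decorin, had 50984, 55417 and 38394 in WT 1, WT 2 and the library labelled WT 3, against 12200, 11094 and 2368 in TSP2KO 1, 2 and 3. Lum, lumican, was at 86.4 in TSP2KO 3 and at 3675 to 7501 in WT. Against WT 1 and WT 2, the mean log2 level of the 9 stood at -1.20, -1.21 and -1.51 in TSP2KO 1, 2 and 3, and that of the library labelled WT 3 at -0.74.

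The melanin enzymes Tyrp1 and Dct were high in the library labelled WT 3, TSP2KO 1 and TSP2KO 2, and low in WT 1, WT 2 and TSP2KO 3, so that neither followed the genotype label. Pmel had the same 3 libraries on top. Mitf did the reverse of this within the wild-type group and was lower in all TSP2KO libraries. Mlana was highest in WT 2. Among the 6 genes that could be tested, none passed the threshold with all libraries, and Mitf alone passed, as lower in TSP2KO, without the library labelled WT 3.

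**Figure D1:**
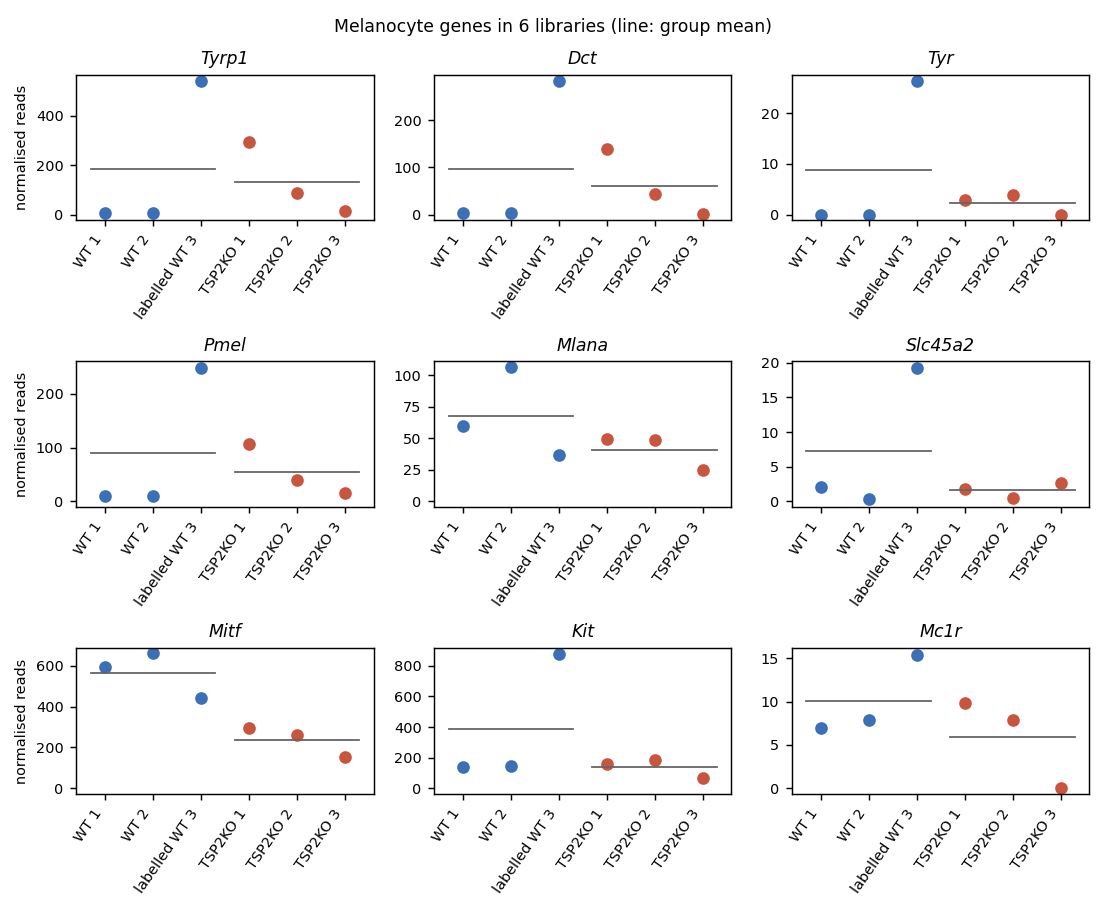
Normalised reads (linear axis) of the 9 listed melanocyte genes in each library, with WT in blue, TSP2KO in red and a line at each group mean. Tyrp1, Dct and Pmel have their highest point in the library labelled WT 3, at 541, 283 and 248, while Mitf is above 441 in all 3 libraries labelled WT and below 294 in all 3 TSP2KO libraries.

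Tyrp1 (chromosome 4, 80834123 to 80851719, plus strand), tyrosinase-related protein 1, had 5.15, 8.24 and 541 normalised reads in WT 1, WT 2 and the library labelled WT 3. In TSP2KO 1, 2 and 3 it had 293, 88.4 and 16.03. The library labelled WT 3 lay 80.9-fold above the mean of WT 1 and WT 2, and all TSP2KO libraries lay between them. The groups overlapped, and the WT mean was 185 ± 309 against 132 ± 144 for TSP2KO (SD, n = 3 each). On the log2(value + 1) scale, which understates changes of low genes, TSP2KO minus WT was 1.29 (SE 1.79, 95% interval -2.91 to 5.49, limma adjusted p = 0.858). The sign is opposite to that of the means, where the library labelled WT 3 makes up most of WT. Leaving that library out gave 3.34 (SE 1.07, limma adjusted p = 0.115; 0.115 to 1.0 over its alternatives).

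Dct (chromosome 14, 118012790 to 118052244, minus strand), dopachrome tautomerase, was at 4.12 in WT 1, 3.53 in WT 2 and 283 in the library labelled WT 3. The TSP2KO libraries had 138, 43.1 and 0.890, and the last value is that of 1 read. The same 3 libraries as for Tyrp1 were high, in the same order, and the groups overlapped. TSP2KO minus WT was 0.27 in log2 (SE 2.03, 95% interval -4.50 to 5.05, limma adjusted p = 0.978), and 2.23 without the library labelled WT 3 (SE 1.64, limma adjusted p = 0.453; 0.453 to 1.0 over its alternatives). The sign with all libraries is opposite to that of the means, 96.85 in WT and 60.8 in TSP2KO. The direction of the log2 difference turned, to between -1.04 and -0.21, without WT 1, WT 2, TSP2KO 1 or TSP2KO 2.

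Tyr (chromosome 7, 87424771 to 87493512, minus strand), the enzyme that limits melanin synthesis, was near the limit of detection. It had 41 reads in the library labelled WT 3, 5 in TSP2KO 1 and 7 in TSP2KO 2, which are 26.3, 2.87 and 3.92 normalised reads. No read was counted in WT 1, WT 2 and TSP2KO 3, which allows up to 1.55, 1.18 and 2.67 normalised reads (3 reads, counting error only). The libraries with reads are those in which Tyrp1 and Dct were high. With a mean under 10 it was not in the fit over all genes. An exact permutation test over the 6 libraries, two-sided, gave p = 1.0, where 3 against 3 cannot go below 0.1.

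Pmel (chromosome 10, 128704195 to 128720238, plus strand), the fibril protein of the early melanosome, had 9.79, 10.2 and 248 normalised reads in WT 1, WT 2 and the library labelled WT 3. It had 107, 40.3 and 15.1 in TSP2KO 1, 2 and 3. Every TSP2KO library lay above WT 1 and WT 2 and below the library labelled WT 3. The difference was 0.42 in log2 (SE 1.29, 95% interval -2.61 to 3.45, limma adjusted p = 0.954), and 1.92 without the library labelled WT 3 (SE 0.76, limma adjusted p = 0.181; 0.181 to 1.0 over its alternatives). The sign with all libraries is opposite to that of the means, 89.4 in WT and 54.1 in TSP2KO. The log2 difference turned to between -0.35 and -0.27 without WT 1, WT 2 or TSP2KO 1. Exons of Pmel share 34 and 105 bases with Cdk2 and Dgka on the other strand. The library kit keeps the strand but whether the counting used it is not stated, so low Pmel values are uncertain.

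Mlana (chromosome 19, 29697824 to 29708634, plus strand), a small melanosomal membrane protein and a common melanocyte marker, did not share this pattern. It had 60.3, 107 and 36.6 normalised reads in WT 1, WT 2 and the library labelled WT 3, against 49.4, 48.7 and 24.9 in the TSP2KO libraries. The library with most Tyrp1 and Dct was thus the second lowest for Mlana. The groups overlapped, with a log2 difference of -0.65 (SE 0.47, 95% interval -1.76 to 0.46, limma adjusted p = 0.728). Leaving the library labelled WT 3 out gave -1.02 (SE 0.43, limma adjusted p = 0.204; 0.204 to 1.0 over its alternatives).

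Slc45a2 (chromosome 15, 11000721 to 11029233, plus strand), the melanosomal transporter, had 19.2 normalised reads in the library labelled WT 3. The other libraries had 2.06 and 0.392 in WT 1 and WT 2, and 1.72, 0.559 and 2.67 in TSP2KO 1, 2 and 3. Only the library labelled WT 3 stood clear of a few reads. The exact permutation p was 0.7, and the gene was not in the fit over all genes.

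Mitf (chromosome 6, 97807052 to 98021349, plus strand), the transcription factor, was the only tested member whose groups did not overlap. It had 592, 660 and 441 normalised reads in WT 1, WT 2 and the library labelled WT 3, against 294, 259 and 155 in TSP2KO 1, 2 and 3. The WT mean was 565 ± 112 against 236 ± 72.2 for TSP2KO (SD, n = 3 each). Mitf was 2.44-fold lower in TSP2KO (log2 difference -1.29, SE 0.29, 95% interval -1.97 to -0.60), short of the threshold (limma adjusted p = 0.205). Leaving out the library labelled WT 3 took it past the threshold, at -1.45 (SE 0.30, limma adjusted p = 0.0421; 0.0421 to 0.652 over its alternatives). Groups that do not overlap were found for 14.2% of all genes tested, and for 8.27% as lower in TSP2KO. Mitf has several promoters, with 3 RefSeq starts in the windows above, and values per gene do not part the melanocyte isoform from the others.

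Kit (chromosome 5, 75574916 to 75656722, plus strand), the receptor for stem cell factor, was high in a single library. It had 141, 142 and 875 normalised reads in WT 1, WT 2 and the library labelled WT 3, against 161, 186 and 70.3 in the TSP2KO libraries. The log2 difference of -1.01 (SE 0.75, 95% interval -2.76 to 0.74, limma adjusted p = 0.730) was -0.14 without the library labelled WT 3 (SE 0.42, limma adjusted p = 0.875; 0.728 to 0.994 over its alternatives). The Kit difference in the means thus rested on that library. Mc1r (chromosome 8, 123407107 to 123410744, plus strand), the melanocortin receptor, had 6.90, 7.85 and 15.4 in WT 1, WT 2 and the library labelled WT 3, against 9.80, 7.83 and 0 in TSP2KO 1, 2 and 3. Zero reads in TSP2KO 3 allow up to 2.67. The groups overlapped (exact permutation p = 0.5). Its values were not whole reads in 2 libraries, and its exons overlap Gm38092 on the other strand by 653 bases.

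Of the 6 members tested, 0 passed the threshold by limma in either direction, against 9 of 14707 genes (0.0612%), all lower. By limma-voom 0 members and 0 genes passed. At an unadjusted p under 0.05, 1 member (Mitf) was lower and 0 were higher, against 6.09% of all genes as lower and 9.75% in either direction. The signs were 3 negative and 3 positive, with a median log2 difference of -0.19 against -0.01 among all 14707. With the library labelled WT 3 left out, 1 member passed as lower and 0 as higher, against 2.75% of all genes as lower, 2.43% as higher and 5.17% in either direction. The members' median then became 0.89, against -0.03 among all genes. Tyrp1 and Pmel then had an unadjusted p under 0.05 as higher, and Mitf and Mlana as lower, against 24.5% of all genes in either direction and 12.7% as lower. The remaining 3 listed members, Tyr, Slc45a2 and Mc1r, had means under 10 and were not among those tested.

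**Figure D2:**
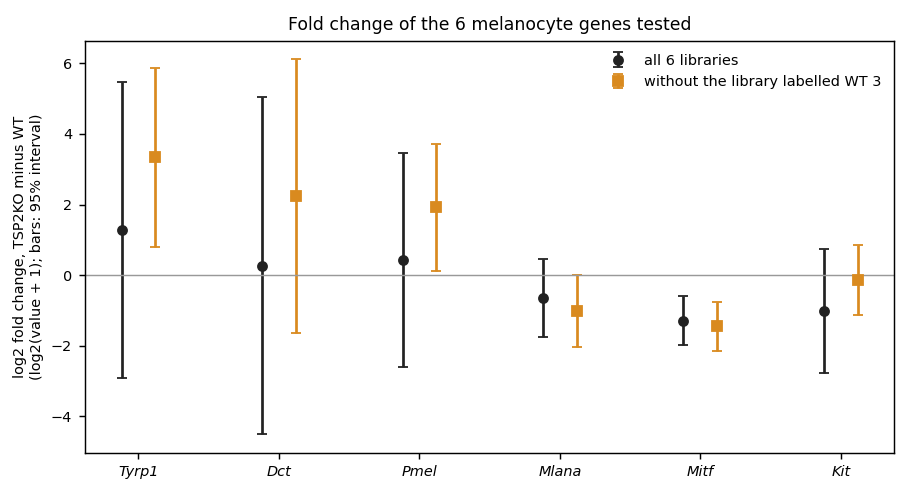
Log2 fold change (TSP2KO minus WT, on log2(value + 1)) of the 6 members tested, with 95% intervals from limma, for all 6 libraries (black) and without the library labelled WT 3 (orange). The intervals of Tyrp1, Dct and Pmel span several log2 units with all libraries, and that of Mitf lies below 0 in both fits.

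The library labelled WT 3 had the highest value for 7 of the 9 listed members and 4 of the 6 tested, against 21.7% of all genes tested. The exceptions were Mitf and Mlana, highest in WT 2. TSP2KO 3 was lowest or tied for lowest in 6 of 9 members and lowest in 4 of the 6 tested (Dct, Mlana, Mitf and Kit), against 19.7% of all genes tested. It is also the library with the fewest reads.

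Levels between genes were compared per kilobase of merged exons, as normalised reads per kb. By the median over libraries the order was Mitf (59.3), Mlana (46.4), Tyrp1 (18.5), Kit (17.05), Pmel (12.1), Dct (4.00), Mc1r (2.15), Slc45a2 (0.634) and Tyr (0.202). The ranges of neighbours in this order overlapped throughout, as with Mlana (23.6 to 101) and Tyrp1 (1.82 to 191). The order within libraries also differed. In the library labelled WT 3, Tyrp1 was first at 191 per kb, above Pmel at 108 and Kit at 98.2, with Mitf at 71.2. In WT 1, Mitf led at 95.6, followed by Mlana at 57.0, and Tyrp1 stood at 1.82. Merged exons include every annotated transcript, so a gene with long rare isoforms is set too low on this scale.

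Shares of reads within a library are free of differences in scaling between libraries. All but 2 of the 50 member values above 0 were whole numbers of reads within 0.02 of a read, the exceptions being Mc1r. Tyrp1 made up 65.7% of the Tyrp1 and Dct reads in the library labelled WT 3 (844 Tyrp1 and 441 Dct reads; exact 95% binomial interval 63.0 to 68.3%). The share was 67.9% in TSP2KO 1 (64.4 to 71.2%) and 67.2% in TSP2KO 2 (60.8 to 73.2%). These 3 intervals overlapped although the Tyrp1 level itself ranged from 88.4 to 541. In WT 1 and WT 2 the shares, 55.6% and 70.0%, rested on 18 and 30 reads, counted as 10 with 8 and 21 with 9. In TSP2KO 3 it was 94.7% (74.0 to 99.9%), from 18 Tyrp1 reads and 1 Dct read, an interval above those of the other 2 TSP2KO libraries and the library labelled WT 3. Intervals cover counting error only, since reads carry no molecular identifiers.

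The pairs of Pmel with Dct and with Tyrp1 also had overlapping intervals in those 3 libraries, but the pair of Mlana with Pmel did not. Among Mlana and Pmel reads, Mlana made up 12.8% (9.87 to 16.3%) in the library labelled WT 3. It made up 31.6% (26.1 to 37.5%) in TSP2KO 1 and 54.7% (46.6 to 62.6%) in TSP2KO 2. Among Pmel and Dct reads, Pmel made up 46.7%, 43.6% and 48.3% in the library labelled WT 3, TSP2KO 1 and TSP2KO 2, but 70.4% and 74.3% in WT 1 and WT 2, from 19 and 26 Pmel reads, and 94.4% in TSP2KO 3, from 17. Among Pmel and Tyrp1 reads it made up 31.4%, 26.7% and 31.3% in the 3 libraries, and 65.5%, 55.3% and 48.6% in WT 1, WT 2 and TSP2KO 3. Among Tyr and Tyrp1 reads, Tyr made up 4.63% (3.34 to 6.23%) in the library labelled WT 3 and 4.24% (1.72 to 8.55%) in TSP2KO 2. In TSP2KO 1 it was 0.971% (0.316 to 2.25%), from 5 Tyr reads. That interval did not overlap the one of the library labelled WT 3. The pairs of Mlana or Mitf with Tyrp1 differed more. Among Mlana and Tyrp1 reads, Mlana made up 92.1% (86.0 to 96.2%) in WT 1 and 92.9% (89.3 to 95.5%) in WT 2, but 6.33% (4.83 to 8.12%) in the library labelled WT 3. In TSP2KO 1, 2 and 3 it was 14.4%, 35.5% and 60.9%. Mitf made up 99.1% and 98.8% of the Mitf and Tyrp1 reads in WT 1 and WT 2, and 44.9% in the library labelled WT 3. In TSP2KO 1 the pair had 511 Mitf and 510 Tyrp1 reads, and in TSP2KO 2 and 3 Mitf made up 74.6% and 90.6%.

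**Figure D3:**
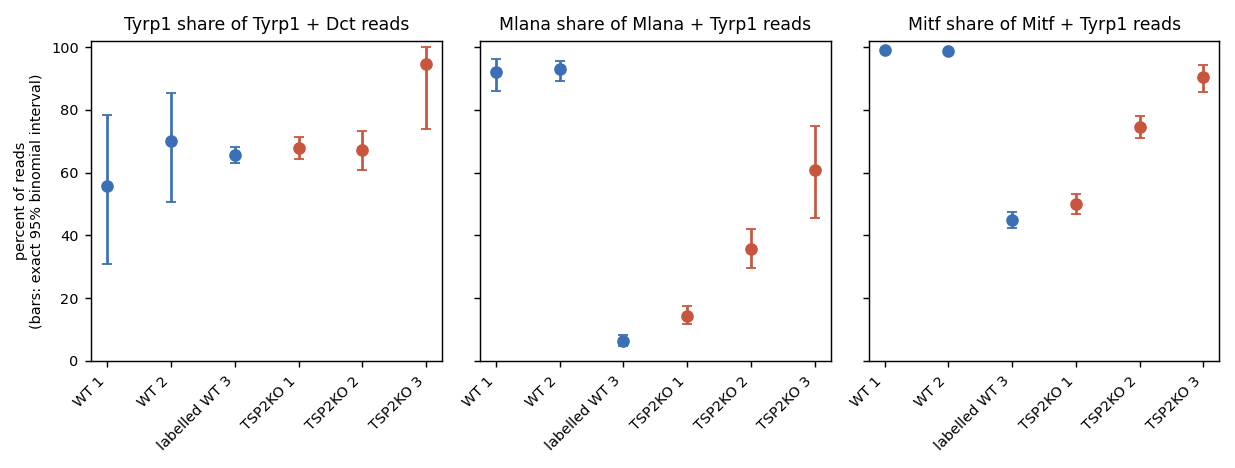
Percent of the reads of a gene pair that came from the first gene, in each library (WT blue, TSP2KO red), with exact 95% binomial intervals. The Tyrp1 share of Tyrp1 and Dct reads lies between 65.7% and 67.9% in the library labelled WT 3, TSP2KO 1 and TSP2KO 2, while the Mlana share of Mlana and Tyrp1 reads runs from 6.33% to 92.9%.

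Markers of other skin cells differed between the same libraries, and in bulk RNA more cells of a type and more RNA per cell cannot be told apart. Keratinocyte markers, 12 of 12 listed, summed to 607 to 46830 normalised reads in WT and 583 to 15754 in TSP2KO. Over the 9 tested, their mean log2 level, set against the WT 1 and WT 2 average, was 4.71, 3.33 and 3.31 in the library labelled WT 3, TSP2KO 1 and TSP2KO 2, but -0.87 in TSP2KO 3. Tyrp1 on that scale was at 6.17, 5.29 and 3.57, and at 1.18 in TSP2KO 3. Krt14, a basal keratin, had 15525 in the library labelled WT 3, 5061 in TSP2KO 1, 4727 in TSP2KO 2 and 157 to 553 in the others. Krt10, another keratin, did not have this pattern. It had 17.5, 27.1 and 28.9 in WT 1, WT 2 and the library labelled WT 3, against 24.7, 38.6 and 29.4 in TSP2KO 1, 2 and 3. Krt1 was at 0 in WT 1, the library labelled WT 3 and TSP2KO 1, Krt15 in WT 2 and TSP2KO 3, and Epcam in TSP2KO 3. Endothelial markers, 5 of 5 listed, summed to 413 to 4410 in WT and 498 to 1950 in TSP2KO and stood at 2.63, 1.49 and 1.51 in those 3 libraries. Tek and Emcn were higher in each of those 3 libraries than in any other, but Kdr and Cdh5 were not. Kdr had 125 in WT 1 against 117 in TSP2KO 1, and Cdh5 had 128 against 98.2. With all libraries 0 of the 5 passed by limma. Without the library labelled WT 3, Emcn passed as higher (log2 difference 2.32, SE 0.49, limma adjusted p = 0.0456), against 2.43% of all genes. The part of keratinocytes and endothelial cells in the melanocyte gene values was not tested.

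**Figure D4:**
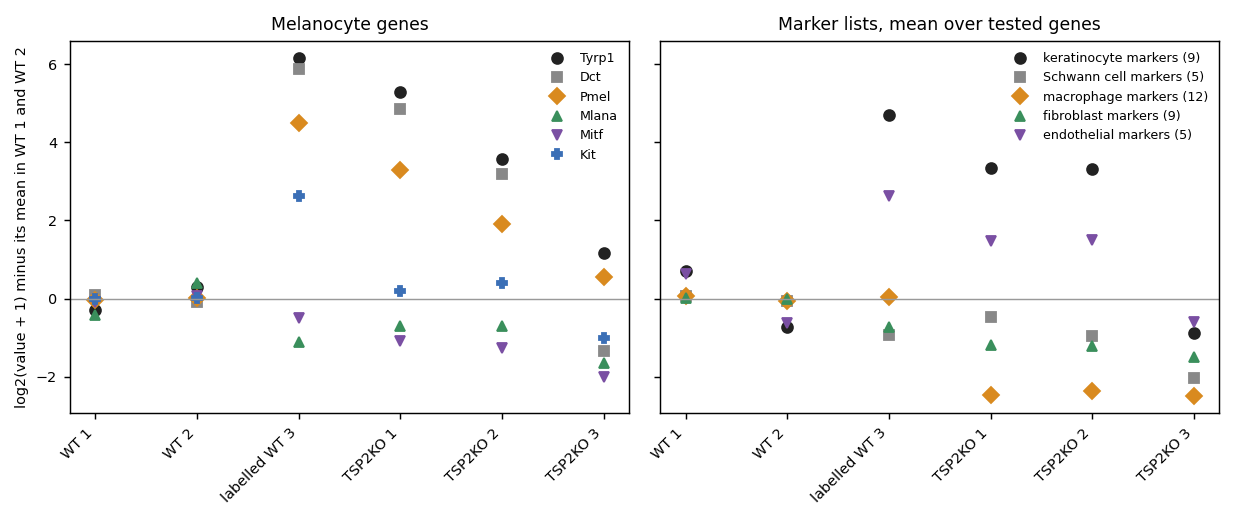
Log2(value + 1) in each library minus the mean of WT 1 and WT 2, for 6 melanocyte genes (left) and as a mean over the tested genes of 5 marker lists (right, number of genes in brackets). Tyrp1, Dct and Pmel stand at 6.17, 5.88 and 4.50 in the library labelled WT 3, where keratinocyte markers stand at 4.71 and Mitf at -0.50.

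Schwann cell markers, glia that share the neural crest origin and the factor SOX10 with melanocytes, had a different order. The 6 used here were all above 0 in every library, and they summed to 5257 to 14764 normalised reads in WT and 2065 to 6076 in TSP2KO. Cdh19, a cadherin of Schwann cell precursors, had 8601, 6906 and 2522 in WT 1, WT 2 and the library labelled WT 3, against 2862, 2175 and 989 in TSP2KO 1, 2 and 3. Erbb3, a neuregulin receptor of the lineage, had 3058, 2699 and 1772, and 1580, 1291 and 549. Of the 5 tested, 0 passed with all libraries by limma or limma-voom. At an unadjusted limma p under 0.05, 2 were lower, against 6.09% of all genes. Without the library labelled WT 3, 1, Cdh19, passed as lower (log2 difference -2.07, SE 0.43, limma adjusted p = 0.0426), against 2.75% of all genes. Like Cdh19 and Erbb3, Mitf was lowest in TSP2KO 3 and higher in WT 1 and WT 2 than elsewhere, but not all the markers had this order. Mbp, myelin basic protein, had 188, 203 and 336, and 502, 147 and 178, and S100b, a calcium-binding protein of glia, was highest in TSP2KO 1 at 446. The part of Schwann cells in the Mitf values was not tested.

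Macrophage markers bear on Mitf as well. All 13 were listed, with a summed level of 3375 to 6017 normalised reads in WT and 732 to 854 in TSP2KO, and Aif1 was at 0 in all TSP2KO libraries. All 12 tested were lower in sign, and 11 at an unadjusted limma p under 0.05, against 6.09% of all genes. With all libraries 1, C1qb, passed as lower (log2 difference -3.60, limma adjusted p = 0.0456), against 0.0612% of all genes. Without the library labelled WT 3, 9 passed as lower, against 2.75% of all genes. In that library macrophage markers stood at 0.05 relative to WT 1 and WT 2, while Mitf stood at -0.50. In TSP2KO 1, 2 and 3 the markers stood at -2.467, -2.356 and -2.495, and Mitf at -1.088, -1.268 and -2.006. Mast cell markers bear on Kit. Of 9, Fcer1a and Ms4a2 were not analysed here, and the other 7 summed to 9.81 to 189 in WT and 1.78 to 45.9 in TSP2KO. Tpsab1, a mast cell tryptase, had 98.8 in the library labelled WT 3, 2.06 and 0.392 in WT 1 and WT 2, and 12.1, 20.7 and 0 in the TSP2KO libraries. Cma1, a chymase, was at 0 in every library except the one labelled WT 3, and Cpa3, a carboxypeptidase, had 23.1 there and at most 0.575 elsewhere. Gata2, a transcription factor of mast cells and other cells, did not peak there, with 26.8, 6.67 and 15.4 in WT 1, WT 2 and the library labelled WT 3, against 13.2, 19.02 and 0.890. The part of macrophages and mast cells in the Mitf and Kit values was not tested.

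Other genes of the pigment lineage gave no call with all libraries, by limma or limma-voom, and 0 had an unadjusted limma p under 0.05. Of 13 such genes, 9 were tested, 6 were lower and 3 higher in sign, and the median log2 difference was -0.37. Sox10, which acts upstream of Mitf and is also made by Schwann cells, had 573, 352 and 221 normalised reads in WT 1, WT 2 and the library labelled WT 3, against 255, 261 and 85.5 in TSP2KO. Pax3, another upstream factor, had 215, 188 and 169, and 179, 162 and 53.4. Ednrb, the endothelin receptor of the melanocyte lineage and of other cells, had 4727, 6659 and 1662, and 2097, 2142 and 2027. Without the library labelled WT 3 Ednrb passed as lower (log2 difference -1.43, SE 0.20, limma adjusted p = 0.0186). It was the only one of the 9 to pass, against 2.75% of all genes as lower. Gpnmb, a PMEL homologue that macrophages also express, was far more abundant, at 16049 to 38499 in all libraries. Sox10, Pax3 and Gpnmb did not pass in either fit. The 3 with a positive difference were Slc7a11 (0.38), Mcoln3 (0.36) and Mlph (0.18). Mcoln3, a cation channel of the endolysosome, was high in the same 3 libraries as Tyrp1, with 5.15, 0.392 and 73.8, and 32.7, 13.4 and 1.78. Slc7a11, the cystine transporter, had 264, 488 and 1506, and 1375, 530 and 587. Mlph, the melanophilin that links melanosomes to their motor, had 288, 342 and 123, and 411, 303 and 141, and without the library labelled WT 3 its difference turned to -0.27.

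Genes that build and move melanosomes and related organelles are used by many cell types, and none of them passed. Of 20, 18 were tested, 10 were lower and 8 higher in sign, the median log2 difference was -0.01, and by limma 0 passed with or without the library labelled WT 3. Limma-voom also called 0, and 0 had an unadjusted limma p under 0.05 with all libraries. At an unadjusted p their smallest values belonged to Atp7a, a copper transporter that loads tyrosinase (log2 difference -0.32, SE 0.16), and Myo5a, the motor that carries melanosomes (-0.60, SE 0.33). Ap3d1, a subunit of the sorting adaptor AP-3, and Lyst, a regulator of lysosome size, were at 0.25 (SE 0.21) and 0.22 (SE 0.17). Of the factors related to MITF, Tfe3 had 570 to 948 normalised reads and a log2 difference of -0.26 (SE 0.20), and Tfeb had 12.1 to 30.9 and -0.39 (SE 0.48); neither passed in either fit.

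Fibroblasts and keratinocytes make ligands that act on melanocytes. Of 9 such genes and antagonists, 6 were tested and 0 passed with all libraries by limma or limma-voom. At an unadjusted limma p under 0.05, 2 were lower and 0 higher, against 6.09% of all genes as lower. Asip, the agouti antagonist of MC1R, was not analysed here. Kitl, the KIT ligand, had 702, 590 and 1870 normalised reads in WT 1, WT 2 and the library labelled WT 3, against 815, 506 and 300 in TSP2KO. Kitl was thus highest in the library where Kit was highest. Edn1, endothelin-1, had 80.3, 62.0 and 472, and 467, 327 and 200. It was higher without the library labelled WT 3 (log2 difference 2.13, SE 0.37, limma adjusted p = 0.0287), against 2.43% of all genes as higher. With that library the Edn1 difference of 1.22 (SE 0.75) did not pass (limma adjusted p = 0.684). Hgf, hepatocyte growth factor, had 99.6, 75.7 and 353, and 23.6, 41.4 and 3.56, a log2 difference of -3.06 (SE 0.91, limma adjusted p = 0.318). Nrg1, neuregulin-1, had 107, 97.3 and 173, and 26.4, 67.1 and 47.2 (log2 difference -1.45, SE 0.41, limma adjusted p = 0.289).

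The genes with the most similar profile over the 6 libraries were found for 3 members by the root mean square difference of centred log2 values. For Tyrp1 they were Aldh3b2 (0.37), Sbsn (0.45) and Grhl3 (0.45), which are no melanocyte genes. Sbsn had 14.8, 9.90 and 665 normalised reads in WT 1, WT 2 and the library labelled WT 3, against 367, 154 and 38.0 in TSP2KO 1, 2 and 3. Pmel ranked 56th and Dct 68th in likeness to Tyrp1 against the genes outside the list, and Mlana 10821st. For Mitf the nearest were Arhgef16 (0.06), Gja1 (0.09) and Fam78b (0.12). Gja1, the gap junction protein connexin 43, had 21796, 23283 and 16840, and 10943, 8628 and 6379. For Kit they were Ppp1r16b (0.26), Zc3h12a (0.26) and Smpdl3b (0.29). With 6 libraries that share large differences in other cell markers, many genes have like profiles, and no test is attached to these ranks.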

How the data were processed

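The authors deposited a normalised signal per gene, named as normalised counts. The submitters' processing notes name the build mm10 and, with no role or order, the tools STAR, Partek and DESeq2. Which program counted, with which strand setting and annotation, is not given in the sources used here. Deposited values are not whole, so no count test was run. In each library the low values lie on steps of 1 size, taken as the worth of 1 read, and 68.3% to 73.6% of values were whole multiples within 0.02 of a read. Dividing the total by the step gave the estimated depth. A column's sample was taken from the genotype and number in its name, since library suffixes differ from the labels.

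The 14707 genes whose mean over all libraries reached 10 were tested as log2(value + 1) with limma 3.58.1 in R 4.3.3 (linear model, mean-variance trend, two-sided). The threshold was 0.05 on p-values adjusted after Benjamini and Hochberg across those genes. The limma code was tested on simulated data. Members under the filter got an exact permutation test. Coordinates and exon lengths are from GENCODE M21 on mm10, equal to the file's for all 9 members after 1 base is taken off its stop.

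The members, the gene lists and the alternatives were chosen with earlier results of these data known. All listed members are named. Other lists contribute up to 4 tested members of smallest p, and the nearest genes are the 3 closest for Kit, Mitf and the most abundant other member, passing over unnamed loci. Some marker genes are not reported here. Krt14, Aif1, Cma1, Cpa3, Krt1, Krt15, Epcam, Col1a1, Vim, Mbp, Mcoln3, Slc7a11 and Mlph were named after their values were seen.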

Additional observations from a re-analysis of the deposited data

How the results depend on the processing

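With all libraries 0 members passed under every alternative that keeps them: pseudocounts of 0.1 and 10, no filter, a mean of at least 100 (which leaves Tyrp1, Mitf and Kit), rescaling by trimmed means of log ratios, limma-voom and the replicate block. Over all genes the 9 lower calls became 14 with a pseudocount of 10, 7 after rescaling, and 0 with a pseudocount of 0.1, no filter, a mean of at least 100, limma-voom or the replicate block. Leaving out 1 library in turn gave 0 to 404 genes lower and 0 to 357 higher, and 0 to 1 members lower and 0 higher; all but the zeros came without the library labelled WT 3. The cause was not tested.

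Mitf, Kit, Mlana, Tyrp1 and Mc1r kept their direction under the alternatives run. Over the libraries left out, Pmel ranged from -0.35 to 1.92, Dct from -1.04 to 2.23, Tyr from -0.97 to 1.42 and Slc45a2 from -1.66 to 0.28 in log2, each crossing 0. With a pseudocount of 0.1 Tyr was at 0.73, against -0.17 as reported. Samples of the same number did not deviate together (correlations of -0.42, -0.25 and -0.40 for numbers 1, 2 and 3). This cannot exclude a pairing, since each group has 3 libraries and the WT deviations include the library labelled WT 3. Under the block Mitf was at -1.29 (limma adjusted p = 0.154). The count tests planned for whole reads were not run, since only 68.3% to 73.6% of values in a library were whole reads. Depth limits Tyr, Slc45a2 and Mc1r most, and Dct in TSP2KO 3.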
